A study of Mus musculus with 15 samples.

Results

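The genes described here are the 10 of the 55228 genes listed in every library that carry the symbols Myc, Mycn, Mycl, Max, Mxd1, Mxd3, Mxi1, Mnt, Ncl and Odc1. They were chosen by symbol: the Myc paralogues, their shared partner Max, 4 Mxd and Mnt repressors, and a pair of known Myc target genes. RNA was sequenced from mouse embryonic stem cells of the line 81K1, a derivative of the line OG2 in which an shRNA against Smarcb1, placed in the Rosa26 locus, is made only when doxycycline is given. The 48 h kd, 72 h kd and 240 h kd groups received 1 µg doxycycline per ml medium every day for 48 h, 72 h and 240 h, and the 48 h ctrl and 240 h ctrl groups were the same line without doxycycline, with 3 libraries in each of the 5 groups (15 in all). All groups carry the shRNA cassette and were grown with serum and LIF on gelatine. The line is 1 engineered line, no library of doxycycline-treated cells without the shRNA was analysed here, and the effects of doxycycline and of the knockdown cannot be told apart. The labels do not say whether the 3 replicates are separate cultures, so the p-values measure only the spread between these libraries.

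Myc, Mycn and Mycl encode basic helix-loop-helix leucine zipper transcription factors that bind DNA as dimers with Max, preferably at E-boxes of the sequence CACGTG, and promote ribosome production, nucleotide synthesis and growth. Mxd1, Mxd3, Mxi1 and Mnt pair with the same Max and recruit Sin3 repressor complexes to the same kind of site. In mouse embryonic stem cells, Mycn and Myc are both active and sustain proliferation and self-renewal. Smarcb1 belongs to the BAF complex, which remodels nucleosomes, and its protein is known to bind Myc, so the family is of interest in its knockdown.

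Levels are given as FPKM, reads per kilobase of the whole gene span scaled to the size of the library, as the authors deposited them. Log2 fold changes are on the log2(FPKM + 0.1) scale, which understates the change of low genes. Every adjusted p in the text is from limma with the Benjamini-Hochberg adjustment over all genes tested, and a gene was called when its adjusted p was under 0.05 and its absolute log2 fold change above 0.58. Between 11074998 and 14515300 reads per library lay behind the values. Smarcb1 itself was at 3.31 to 3.93 FPKM in the 6 ctrl libraries and at 0.503 to 0.820 FPKM in the 9 kd libraries, and it fell by 2.33 on the log2 scale at 48 h, by 2.48 at 72 h and by 2.21 at 240 h (adjusted p at most 0.000695). All 10 pluripotency markers had a mean of at least 1 FPKM in every group, and none of 6 primitive endoderm, 5 trophoblast, 4 mesoderm and 6 fibroblast markers did (each list at most 1.57 FPKM in sum). Among these low markers, Sox7 was called lower at all 3 times, Eomes at 48 h and 240 h and Thy1 at 48 h and 72 h, and Cdx2, Krt7, Mixl1 and Col1a1 were called higher at 240 h. The fibroblast sum was 0.859 to 0.976 FPKM at 240 h ctrl and 1.36 to 1.57 at 240 h kd. Of 5 neural markers, 2 did, and their summed level was 17.6 to 19.7 FPKM in the ctrl libraries, 23.9 to 28.2 at 48 h kd, 22.0 to 24.3 at 72 h kd and 30.0 to 31.3 at 240 h kd. Most of this rise lay in Sox1, with group means of 4.69, 11.7 and 15.8 FPKM at 48 h ctrl, 48 h kd and 72 h kd and of 5.23 and 15.5 at 240 h ctrl and kd. Pax6 was called lower at 48 h and 72 h and Tubb3 at 72 h, and the list median of the log2 fold changes was -0.11, -0.71 and 0.19 at the 3 times. The summed level of the pluripotency markers was 1582 to 1904 FPKM in the ctrl libraries, 1802 to 2109 at 48 h kd, 2568 to 2664 at 72 h kd and 1736 to 1799 at 240 h kd. The height at 72 h lay in Dppa5a, named after its values were seen, whose mean was 765 FPKM at 48 h ctrl and 1570 at 72 h kd: the other 9 summed to 941 to 1104 FPKM in the ctrl libraries, to 902 to 1042 at 48 h kd, 1033 to 1074 at 72 h kd and 935 to 958 at 240 h kd. Members moved in opposite ways at 240 h: Dppa3 was called higher, from a mean of 12.9 FPKM to 1.63 times that level, and Esrrb and Zfp42 lower, from 5.11 to 2.94 and from 49.5 to 33.0 FPKM, with log2 fold changes of 0.70, -0.78 and -0.58. With limma voom, 1 marker of this list was called higher and 1 lower at 240 h. The part of these shifts in the results on the Myc family was not tested, and in bulk RNA a change in the share of cells of a type cannot be told apart from a change in RNA per cell. The library 48 h kd replicate 2 had the highest share of mitochondrial reads, 2.53% against 0.507% to 1.95% in the others.

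Myc rose in the knockdown at 48 h and at 240 h, was near its control level at 72 h, and was the only member called higher in any comparison. Mycl fell at 72 h and 240 h, and Mycn was between 50.2 and 70.9 FPKM in all libraries. Of the 10 members, 1 was called higher and 0 lower at 48 h, 0 higher and 1 lower at 72 h, and 1 higher and 1 lower at 240 h. The background, over all genes with enough reads, was 2.12% higher and 2.35% lower at 48 h, 8.11% and 5.61% at 72 h, and 5.21% and 4.75% at 240 h. With log2 values centred on each library's median, the split at 72 h went from 1309 higher and 906 lower to 1067 higher and 1157 lower. Without the fold threshold, 1 member was higher and 1 lower at 48 h against 9.58% and 10.4% of all genes, 1 and 5 at 72 h against 29.8% and 26.8%, and 3 and 2 at 240 h against 20.1% and 18.4%. At 48 h the counts were near these shares and are no result about the group. At 72 h the members that were lower took a larger share, and those that were higher a smaller one, than over all genes, a difference that was not tested.

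**Figure D1:**
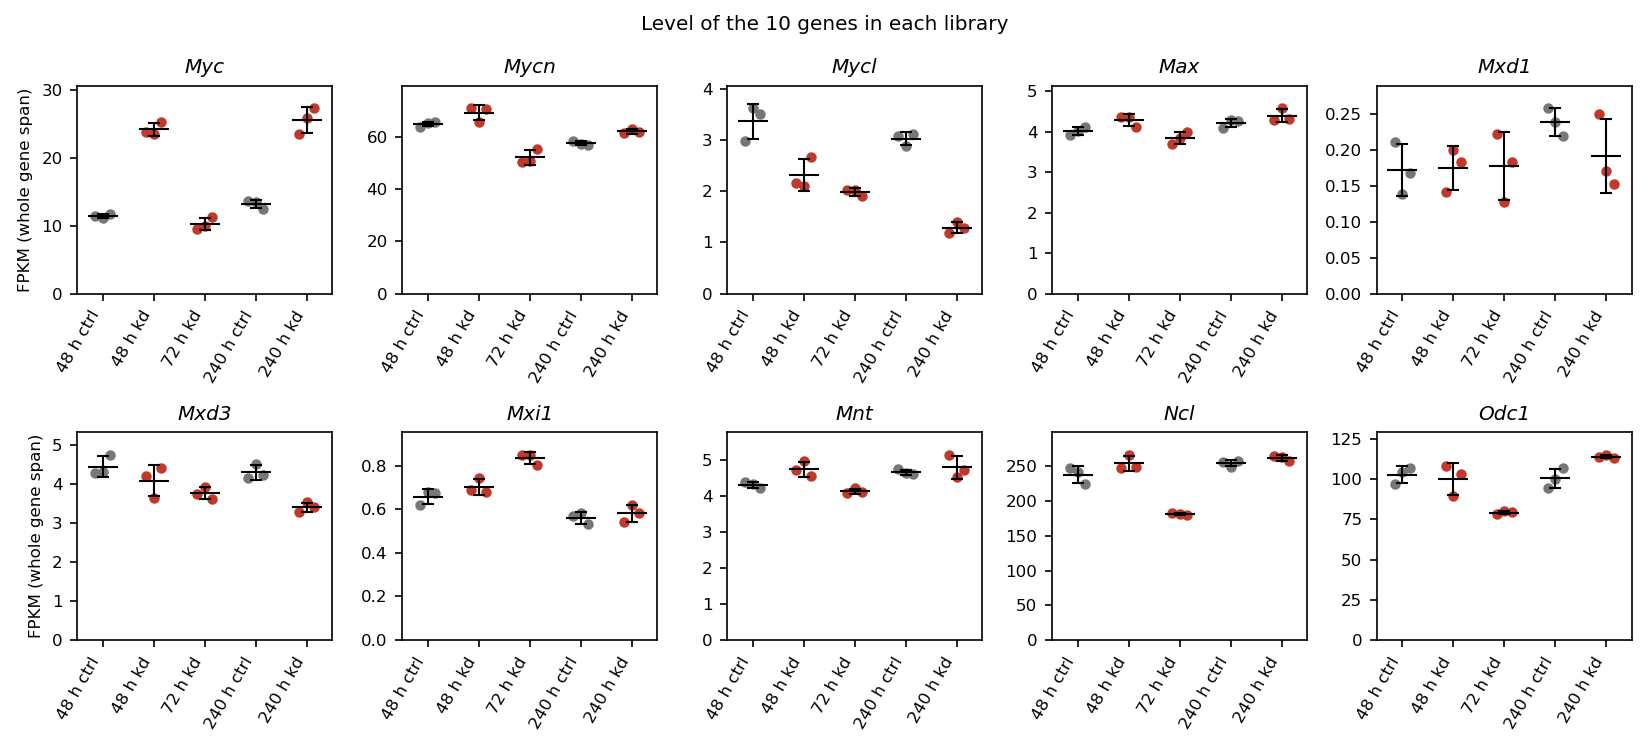
FPKM of the 10 genes (y axis, from 0) in each library of the 5 groups (x axis), with grey points for ctrl and red points for kd libraries and a black bar with whiskers for the mean ± SD of 3 libraries. Myc is at 23.4 to 27.3 FPKM in the 48 h kd and 240 h kd libraries and at 9.53 to 13.6 FPKM in the other 9, and Mycl is lowest at 240 h kd.

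Myc (chr15:61985391-61990374, plus strand, mm10) encodes the founding member of the family. At 48 h its level was 11.4, 11.1 and 11.7 FPKM in the ctrl libraries and 23.8, 23.4 and 25.2 FPKM in the kd libraries. The groups did not overlap, and the mean rose 2.12-fold, from 11.4 ± 0.286 to 24.1 ± 0.935 FPKM (SD, n = 3). On the log2 scale the rise was 1.07 (SE 0.04, adjusted p = 0.000231). At 240 h the level was 13.6, 13.5 and 12.5 FPKM in the ctrl libraries and 23.5, 25.8 and 27.3 FPKM in the kd libraries. The rise was 1.93-fold, from 13.2 ± 0.619 to 25.5 ± 1.89 FPKM (SD, n = 3), or 0.95 on the log2 scale (SE 0.06, adjusted p = 0.000148), and again no library of one group reached the other. The difference between the effects at 240 h and 48 h did not pass the test (interaction term -0.13, 95% interval -0.31 to 0.05, adjusted p = 0.305).

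At 72 h of knockdown, Myc was near the level of untreated cells. The 72 h kd libraries were at 9.53, 9.88 and 11.3 FPKM, the highest of them within the range of the 48 h ctrl libraries, which served as the control because 72 h had none of its own among these libraries, so that the 48 h and 72 h comparisons share their controls. Its log2 fold change was -0.16 (SE 0.07, adjusted p = 0.0799), and the adjusted p ranged from 0.00541 to 0.208 over the alternatives, with the value between -0.37 and -0.11. The lowest of these values, -0.37, was that with the 240 h ctrl libraries as the control, and without 72 h kd replicate 3 it was -0.23 (adjusted p = 0.00643). None reached the fold threshold. Between 48 h and 72 h of doxycycline the mean fell from 24.1 to 10.2 FPKM, to 0.424 of its level, or by 1.23 on the log2 scale (SE 0.07, adjusted p = 0.000427). In this comparison of durations, 0 members were called higher and 1 lower, Myc, against 4.01% and 3.17% of all genes. With no untreated 72 h library, knockdown and harvest time cannot be told apart in any comparison of the 72 h kd group.

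In order of level, Myc was highest at 240 h kd, followed by 48 h kd, 240 h ctrl, 48 h ctrl and 72 h kd. The first pair of this order and the last pair overlapped in their libraries, and the other neighbours did not. Without the library 48 h kd replicate 2, the log2 fold change at 48 h was 1.10.

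Mycn (chr12:12936093-12941914, minus strand), the paralogue best known from neural progenitors and the early embryo, was at 63.9, 65.3 and 65.5 FPKM in the 48 h ctrl libraries and at 70.9, 65.8 and 70.8 FPKM in the 48 h kd libraries. The gap between these groups was smaller than the spread within the kd libraries, and the log2 fold change of 0.09 did not pass the test (SE 0.05, adjusted p = 0.251). At 72 h kd it was at 50.2, 50.6 and 55.3 FPKM, the lowest group for this gene. Its difference from 48 h ctrl was -0.32 on the log2 scale (SE 0.04, adjusted p = 0.00143), which passed the adjusted p and not the fold threshold, and against 48 h kd it was -0.41 (SE 0.06, adjusted p = 0.00398). With the 240 h ctrl libraries as the control it was -0.14 (adjusted p = 0.0398). At 240 h the ctrl libraries were at 58.3, 57.4 and 56.8 FPKM and the kd libraries at 61.3, 63.1 and 62.0 FPKM. The log2 fold change there was 0.11 (SE 0.03, adjusted p = 0.0462), and over the alternatives tried its adjusted p ranged from 0.0162 to 0.159. Its groups ranked from 48 h kd over 48 h ctrl, 240 h kd and 240 h ctrl to 72 h kd, and no neighbours in this order overlapped.

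Mycl (chr4:122995652-123002485, plus strand), the paralogue with the lowest level here, had 107 to 279 reads per library. It was at 2.98, 3.62 and 3.50 FPKM in the 48 h ctrl libraries and at 2.16, 2.11 and 2.67 FPKM in the 48 h kd libraries. The groups did not overlap, but the log2 fold change of -0.53 (SE 0.11, adjusted p = 0.0238) stayed short of the fold threshold. It was called there after rescaling to TPM (-0.58), without 48 h kd replicate 3 (-0.63) and without 48 h ctrl replicate 1 (-0.61). It no longer passed the test with no minimum level (adjusted p = 0.0845), without 48 h kd replicate 1 or 2 (0.0646 and 0.0552) and without 48 h ctrl replicate 2 or 3 (0.0829 and 0.0816), and its log2 fold change over the alternatives was -0.63 to -0.40. At 72 h kd Mycl was at 2.02, 2.03 and 1.90 FPKM. It fell to 0.589 of the 48 h ctrl mean, or by 0.73 on the log2 scale (SE 0.08, adjusted p = 0.000482), which was -0.55, and no longer called, with a pseudocount of 1 FPKM.

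At 240 h, Mycl was at 3.07, 2.88 and 3.11 FPKM in the ctrl libraries and at 1.19, 1.39 and 1.28 FPKM in the kd libraries. The lowest ctrl library was above the highest kd library by more than the range of either group. The mean fell from 3.02 ± 0.126 to 1.29 ± 0.102 FPKM (SD, n = 3), to 0.426 of its level. The log2 fold change was -1.17 (SE 0.07, adjusted p = 8.27e-05), and it was called under each of the 16 alternatives tried. The fall at 240 h was larger than the difference at 48 h by 0.65 on the log2 scale (interaction term -0.65, SE 0.14, adjusted p = 0.00948). In this test of the interaction 0 members were called higher and 1 lower, Mycl, against 3.53% and 3.32% of all genes. With a pseudocount of 1 FPKM the interaction term was -0.42, without 48 h kd replicate 3 it was -0.54 and without 48 h ctrl replicate 1 it was -0.56, each short of the fold threshold.

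**Figure D2:**
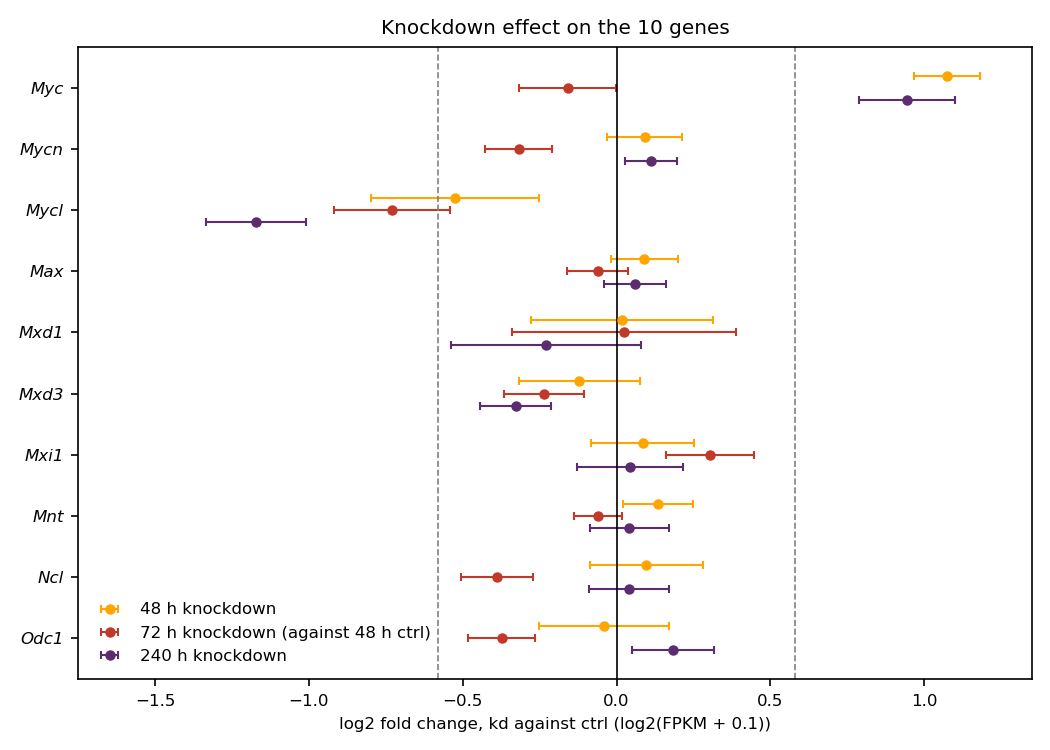
Log2 fold change on the log2(FPKM + 0.1) scale (x axis) of the 10 genes (y axis) for kd against ctrl at 48 h, 72 h and 240 h, with the 48 h ctrl libraries as the control at 72 h, 95% confidence intervals from limma (n = 3 libraries per group) and dashed lines at ±0.58. Myc lies beyond the right line at 48 h and 240 h, Mycl beyond the left line at 72 h and 240 h, and the other 8 genes lie between the lines at all 3 times.

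To compare the paralogues with each other, reads were divided by the exonic length of the gene in GENCODE M21 instead of its span. These values are FPKM per exonic length, and reads in introns are included. On this scale Mycn was the most abundant paralogue in all 15 libraries. Of the summed level of the Myc paralogues, Mycn made up 81.2% ± 0.279 at 48 h ctrl, 71.7% ± 0.783 at 48 h kd, 80.6% ± 0.294 at 72 h kd, 77.6% ± 0.415 at 240 h ctrl and 69.2% ± 1.42 at 240 h kd (SD, n = 3). Myc made up 14.8% ± 0.352, 26.0% ± 0.621, 16.4% ± 0.543, 18.5% ± 0.583 and 29.5% ± 1.41 in the same order. Mycl made up 1.37% at 240 h kd and at most 4.03% on average in any group. Mycn was thus 5.48 times Myc at 48 h ctrl and 2.76 times Myc at 48 h kd, and 4.21 and 2.35 times Myc at 240 h ctrl and 240 h kd.

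The summed level of the paralogues was 141 ± 2.27 at 48 h ctrl, 170 ± 6.73 at 48 h kd, 114 ± 6.60 at 72 h kd, 131 ± 2.34 at 240 h ctrl and 159 ± 4.63 at 240 h kd on the same scale (SD, n = 3). The libraries of each kd group lay outside the range of their control group, above it at 48 h and 240 h and below it at 72 h. Most of the difference at 48 h and 240 h was in Myc, from 20.9 to 44.3 and from 24.2 to 46.8 on this scale, and most of that at 72 h was in Mycn, from 115 to 92.0. The summed level of Mxd1, Mxd3, Mxi1 and Mnt was 28.3 to 30.6 on average in all groups. The ratio of the Myc sum to the Mxd and Mnt sum was 4.80 ± 0.0415 at 48 h ctrl, 5.58 ± 0.271 at 48 h kd, 3.91 ± 0.307 at 72 h kd, 4.44 ± 0.0703 at 240 h ctrl and 5.62 ± 0.275 at 240 h kd (SD, n = 3). These sums and ratios are of RNA, were not tested, and say nothing of protein or of dimers.

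**Figure D3:**
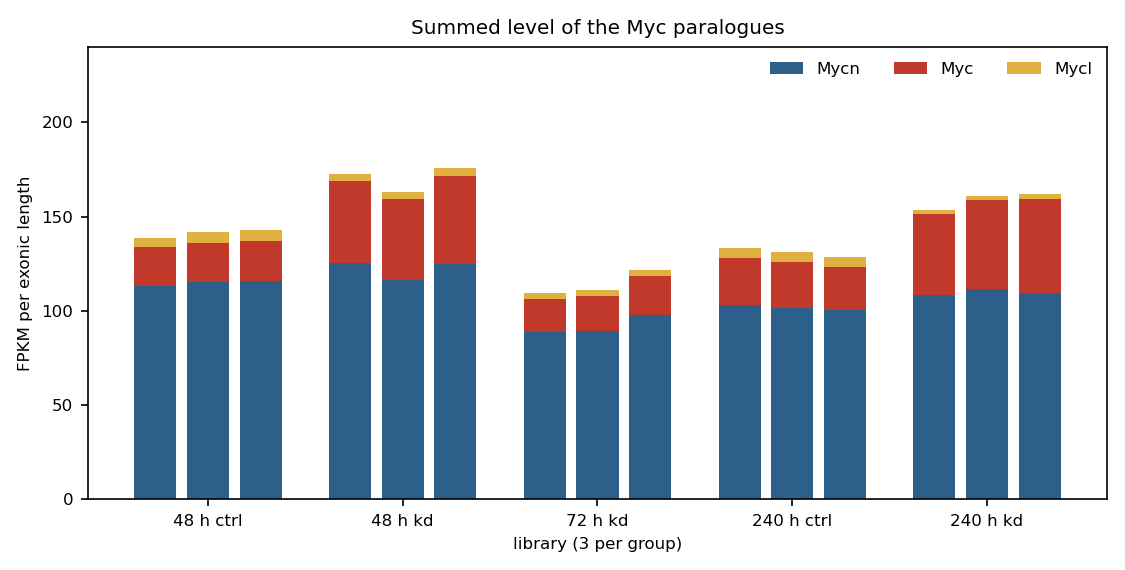
Stacked bars of the level of Mycn, Myc and Mycl in each of the 15 libraries (x axis, 3 per group), in FPKM per exonic length (y axis, from 0). Mycn forms the largest part of each bar, the Myc part is widest at 48 h kd and 240 h kd, and the bars are shortest at 72 h kd.

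Max (chr12:76937269-76962201, minus strand), the partner shared by the activating and the repressing members, was not called in any comparison. Its group means were 4.02 at 48 h ctrl, 4.29 at 48 h kd, 3.85 at 72 h kd, 4.21 at 240 h ctrl and 4.40 FPKM at 240 h kd. In order of level, neighbouring groups overlapped throughout. Its log2 fold changes were 0.09 (95% interval -0.02 to 0.20) at 48 h, -0.06 (-0.16 to 0.04) at 72 h and 0.06 (-0.04 to 0.16) at 240 h, with adjusted p of 0.205, 0.242 and 0.297. With the 240 h ctrl libraries as the control, the value at 72 h was -0.13 and passed the adjusted p (0.0410). Between 48 h and 72 h of knockdown it was lower by 0.15 (adjusted p = 0.0477), an adjusted p that ranged from 0.00878 to 0.228 over the alternatives.

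Among the repressors, none was called in any comparison. Mnt (chr11:74830920-74845725, plus strand), the most broadly expressed of them, was at 4.41, 4.34 and 4.24 FPKM at 48 h ctrl and at 4.73, 4.98 and 4.57 FPKM at 48 h kd. Its log2 fold change of 0.13 at 48 h did not pass the test (SE 0.05, adjusted p = 0.0953), and that between 48 h and 72 h of knockdown was -0.19 (SE 0.05, adjusted p = 0.0188). At 72 h kd Mnt was at 4.09 to 4.23 FPKM, below the 48 h ctrl libraries, with a log2 fold change of -0.06 that did not pass. With the 240 h ctrl libraries as the control it was -0.17 and passed the adjusted p (0.00559). At 240 h kd Mnt was at 5.16, 4.53 and 4.75 FPKM, overlapping the ctrl libraries, with a log2 fold change of 0.04 (adjusted p = 0.574). Per exonic length, Mnt made up 45.4% to 54.5% of the summed repressor level on average.

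Mxd3 (chr13:55325168-55329823, minus strand), a repressor made mostly in dividing cells, was lower in the knockdown at 72 h and 240 h by less than the fold threshold. It was at 4.29, 4.32 and 4.76 FPKM at 48 h ctrl and at 3.76, 3.93 and 3.62 FPKM at 72 h kd, with a log2 fold change of -0.23 (SE 0.05, adjusted p = 0.0104). At 240 h it was at 4.16, 4.52 and 4.25 FPKM in the ctrl and 3.29, 3.54 and 3.41 FPKM in the kd libraries, with a log2 fold change of -0.33 (SE 0.05, adjusted p = 0.00287). The groups did not overlap at either time. The last 105 bases of its span are shared with Prelid1 on the other strand, whose reads were 832% to 968% of those of Mxd3. Whether the counting used strand is not given in the sources used here, so reads of the shared bases cannot be told apart, and Prelid1 was also lower, by 0.32 on the log2 scale at 72 h and by 0.24 at 240 h. The part of Prelid1 reads in the values of Mxd3 was not tested.

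Mxi1 (chr19:53310518-53375810, plus strand), also called Mxd2, was the repressor with a higher level at 72 h. It was at 0.617, 0.678 and 0.675 FPKM at 48 h ctrl and at 0.850, 0.849 and 0.802 FPKM at 72 h kd, which is its highest group and overlaps no other. It was higher by 0.30 on the log2 scale (SE 0.06, adjusted p = 0.00546), and against 48 h kd by 0.22 (SE 0.06, adjusted p = 0.0381). With the 240 h ctrl libraries as the control the value at 72 h was 0.50 (adjusted p = 0.000762), and with a pseudocount of 1 FPKM it was 0.15. Gm10197, a gene of 201 bases on the other strand within its span, held a number of reads that was 7.72% to 12.5% of those counted for Mxi1. Without these reads the log2 fold change at 72 h was 0.29 (adjusted p = 0.00589), and that against 48 h kd was 0.21 and did not pass (adjusted p = 0.0599). Mxd1 (chr6:86647042-86669161, minus strand), known from differentiating cells that leave the cycle, had only 34 to 73 reads per library. Its group means were 0.172 to 0.239 FPKM, neighbouring groups overlapped throughout, and the 95% intervals of its log2 fold change were -0.28 to 0.31 at 48 h and -0.54 to 0.08 at 240 h. Without 240 h kd replicate 1, the value at 240 h was -0.37 and passed the test (adjusted p = 0.0186).

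Of the 9 members with a RefSeq promoter window at hand (GRCm38.p6), only Max and Mnt hold CACGTG, the E-box that Myc and Mxd dimers recognise. No window of Myc was at hand, and the promoters of Max and Mnt are shown. Each run covers 250 bases before to 50 bases after the annotated start, 5′ to 3′ on the gene's strand, with the E-box in capitals. The window of Max is chr12:76962199-76962498 (minus strand), with the E-box beginning 3 bases before the start, and that of Mnt is chr11:74830674-74830973 (plus strand), with the E-box beginning 123 bases before the start.
Max: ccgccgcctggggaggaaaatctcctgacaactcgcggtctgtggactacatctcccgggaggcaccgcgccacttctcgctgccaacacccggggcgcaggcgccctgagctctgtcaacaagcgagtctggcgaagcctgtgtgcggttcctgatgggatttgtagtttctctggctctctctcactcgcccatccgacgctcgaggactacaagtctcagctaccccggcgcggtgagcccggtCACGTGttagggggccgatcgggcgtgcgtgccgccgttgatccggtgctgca
Mnt: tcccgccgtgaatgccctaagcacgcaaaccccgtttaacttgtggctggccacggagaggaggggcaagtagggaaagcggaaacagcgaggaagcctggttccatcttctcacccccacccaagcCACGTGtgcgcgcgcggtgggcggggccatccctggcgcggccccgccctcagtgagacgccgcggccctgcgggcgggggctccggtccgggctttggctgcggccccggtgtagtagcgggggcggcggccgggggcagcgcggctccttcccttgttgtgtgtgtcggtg
CACGTG reads the same on both strands and was found in 7.15% of the 32851 promoter windows of this length, or in 8.09% of 27025 genes. A match in these letters is a description and not a site bound in these cells. Neither gene with the motif was called in any comparison, and the 7 other members with a promoter window at hand had no CACGTG in it.

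Ncl and Odc1 are long-known targets of Myc: Ncl encodes nucleolin, an abundant nucleolar protein of ribosome production, and Odc1 encodes ornithine decarboxylase, which makes putrescine in the first step of polyamine synthesis. Both were lower at 72 h of knockdown and neither was called. Their promoter windows are shown to set them beside those of Max and Mnt: that of Ncl is chr1:86359406-86359705 (minus strand) and that of Odc1 is chr12:17544623-17544922 (plus strand), written as above, and no letters are in capitals because CACGTG does not occur in either window.
Ncl: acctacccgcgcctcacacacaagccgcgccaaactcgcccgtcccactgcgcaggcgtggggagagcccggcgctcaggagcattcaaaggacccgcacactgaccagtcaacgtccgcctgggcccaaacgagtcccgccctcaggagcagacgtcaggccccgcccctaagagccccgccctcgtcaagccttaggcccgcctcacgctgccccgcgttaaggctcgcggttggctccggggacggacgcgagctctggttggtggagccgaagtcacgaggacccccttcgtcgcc
Odc1: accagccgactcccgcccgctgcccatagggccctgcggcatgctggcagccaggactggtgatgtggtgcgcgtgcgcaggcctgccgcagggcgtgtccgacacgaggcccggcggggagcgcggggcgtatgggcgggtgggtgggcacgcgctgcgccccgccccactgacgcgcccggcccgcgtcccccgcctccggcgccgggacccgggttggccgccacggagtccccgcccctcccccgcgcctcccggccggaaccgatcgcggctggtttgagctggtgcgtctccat
Nothing about binding follows from its absence within these windows.

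Ncl (chr1:86344719-86359400, minus strand) was at 248, 242 and 225 FPKM at 48 h ctrl, at 248, 267 and 249 FPKM at 48 h kd and at 184, 182 and 180.2 FPKM at 72 h kd. The 72 h kd libraries were close to each other and below every other library of the series. Its log2 fold change at 72 h was -0.39 (SE 0.05, adjusted p = 0.000879), and against 48 h kd it was -0.48 (SE 0.06, adjusted p = 0.00302). At 48 h and 240 h, the times at which Myc rose, the log2 fold changes of Ncl were 0.10 (95% interval -0.09 to 0.28) and 0.04 (-0.09 to 0.17), with adjusted p of 0.413 and 0.581. A link of Ncl to the level of Myc was not tested.

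Odc1 (chr12:17544794-17551505, plus strand) was at 96.7, 105 and 107 FPKM at 48 h ctrl, at 108, 89.3 and 103 FPKM at 48 h kd and at 78.3, 80.0 and 79.3 FPKM at 72 h kd. As for Ncl, the 72 h kd libraries were the lowest of the series. Its log2 fold change at 72 h was -0.37 (SE 0.04, adjusted p = 0.000776), and against 48 h kd it was -0.33 (SE 0.08, adjusted p = 0.0198). The 48 h groups overlapped (log2 fold change -0.04, 95% interval -0.25 to 0.17, adjusted p = 0.779). At 240 h, Odc1 was at 94.6, 100.3 and 107 FPKM in the ctrl and 114, 115 and 113 FPKM in the kd libraries. The groups did not overlap, and the log2 fold change of 0.18 (SE 0.06) passed narrowly (adjusted p = 0.0415). Its adjusted p ranged from 0.000991 to 0.124 over the alternatives. At 72 h, Ncl and Odc1 kept an adjusted p of at most 0.00594 and 0.00495 in all 17 alternatives.

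Between the untreated groups at 240 h and 48 h, 0 of the 10 members were called, against 0.327% of all genes called higher and 0.0863% called lower. By limma 5 of the 10 had an unadjusted p under 0.05. No share of all genes was taken at that level, so this count is no result about the group. Limma voom on the recovered reads called 0 members as well. After rescaling to TPM, 253 genes were called higher and 25 lower in place of 53 and 14. The differences with the smallest adjusted p were those of Mycn, lower by 0.17 on the log2 scale at 240 h (adjusted p = 0.0607), and of Myc, higher by 0.21 (adjusted p = 0.0654). With TPM the difference of Myc was 0.32 (adjusted p = 0.015), on a scale that moved the median of all genes by 0.11. All of these were smaller than the rises of Myc in the knockdown. Between 72 h and 48 h of knockdown, 7 of the 10 members passed the adjusted p at any fold change, 1 higher and 6 lower, against 20.7% of all genes higher and 15.9% lower. Mxi1 was the one that was higher, and Myc, Mycn, Max, Mnt, Ncl and Odc1 were lower. Myc, Mycn and Ncl passed under each of the 16 alternatives. With 1 library left out, Max did not pass, whichever it was (adjusted p of 0.0595 to 0.148), and Mxi1 passed only without 48 h kd replicate 2 (0.0226). Odc1 did not pass without 48 h kd replicate 3 (0.0656) or without any 1 of the 72 h kd libraries (0.0595 to 0.0681), and Mnt did not without 72 h kd replicate 1 or 3 (0.0681 and 0.0692). With TPM the split of all genes called there went from 645 higher and 510 lower to 1281 and 660, and with median centring to 530 and 624.

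The wider Max network, beyond the 10 genes, held a few called genes. Of Mxd4, Mga, Mlx, Mlxip and Mlxipl, 0 were called at 48 h by limma (2 at an unadjusted p under 0.05, and 1 called by voom). At 72 h and at 240 h, limma called 1 higher and voom 2. The median log2 fold changes were 0.22, 0.15 and 0.04 at the 3 times, beside 0.01 over all genes at each time. At an adjusted p under 0.05 and any fold change, 3 were higher and 1 lower at 72 h. At 240 h these counts were 2 and 1. The shares of all genes were 29.8% and 26.8% at 72 h and 20.1% and 18.4% at 240 h. Called higher and lower over all genes were 2.12% and 2.35% at 48 h, 8.11% and 5.61% at 72 h, and 5.21% and 4.75% at 240 h, and counts among 5 genes are no result about the list. Mlxipl, which encodes the glucose-sensing factor ChREBP, rose at 72 h from 0.177 to 0.428 FPKM (log2 fold change 0.94, SE 0.10, adjusted p = 0.000543). Mxd4, a further Mxd repressor, rose at 240 h from 0.489 ± 0.0852 to 0.954 ± 0.116 FPKM (SD, n = 3; log2 fold change 0.84, SE 0.13, adjusted p = 0.00348). Both are low genes, and with a pseudocount of 1 FPKM their log2 fold changes were 0.28 and 0.39. Mga, the Max partner of a variant Polycomb complex, had a lower effect at 240 h than at 48 h (interaction term -0.59, SE 0.12, adjusted p = 0.0062), with log2 fold changes of 0.23 at 48 h (adjusted p = 0.104) and -0.35 at 240 h (adjusted p = 0.0103). Its call did not hold in 8 of 22 alternatives, in which the term was between -0.57 and -0.48.

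Among 23 cofactors and regulators of Myc turnover, 3 genes, Pim1, Pim3 and Usp28, were called in the knockdown. Pim1, a LIF-responsive kinase that phosphorylates and stabilises Myc, was at 25.0, 24.3 and 26.0 FPKM at 48 h ctrl, at 39.7, 36.3 and 38.4 at 48 h kd and at 72.7, 68.3 and 72.1 at 72 h kd. Its groups were apart at each step. It rose by 0.60 on the log2 scale at 48 h (adjusted p = 0.00132), 1.50 at 72 h (adjusted p = 6.58e-06) and 0.72 at 240 h (adjusted p = 7.9e-05), and that at 48 h fell to between 0.56 and 0.58, short of the threshold, with TPM, without 48 h kd replicate 1 and without 48 h ctrl replicate 2. Pim1 was thus highest at 72 h, when Myc RNA was near the control level, and a link between them was not tested. Pim3, a related kinase, fell at 240 h from 62.8 ± 2.10 to 37.2 ± 0.576 FPKM (SD, n = 3; log2 fold change -0.75, SE 0.04, adjusted p = 5.68e-05). At 48 h its log2 fold change was 0.09 (adjusted p = 0.409), and the effects differed (interaction term -0.84, SE 0.08, adjusted p = 5.89e-05). At 72 h kd Pim3 was at 91.1 to 94.8 FPKM, above the 65.5 to 73.7 of 48 h ctrl, and was not called. Usp28, a deubiquitinase that counters Myc degradation by Fbxw7, rose at 72 h from 3.82 to 6.18 FPKM (log2 fold change 0.68, SE 0.03, adjusted p = 2.04e-05), which was 0.58 and no longer called with a pseudocount of 1 FPKM. Usp28 was already at 5.18 to 5.49 FPKM at 48 h kd, above the 3.75 to 3.85 of 48 h ctrl, and not called. Its means at 240 h were 3.21 FPKM in ctrl and 3.26 in kd. In all, 1 of 23 was called higher and 0 lower at 48 h, 2 and 0 at 72 h, and 1 and 1 at 240 h. Over all genes 2.12% were called higher and 2.35% lower at 48 h, 8.11% and 5.61% at 72 h, and 5.21% and 4.75% at 240 h, so these counts are no result about the list. At an adjusted p under 0.05 and any fold change, 2 were higher and 3 lower at 48 h. These counts were 7 and 8 at 72 h and 2 and 8 at 240 h. The shares of all genes were 9.58% and 10.4%, 29.8% and 26.8%, and 20.1% and 18.4%. At 240 h the lower genes took a larger share than over all genes, a difference that was not tested. The list medians were -0.03, -0.03 and -0.06.

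Of the 50 further Myc targets in ribosome production and growth, 0 were called at 48 h by limma (19 at an unadjusted p under 0.05, and 1 called by voom), where 2.12% of all genes were called higher and 2.35% lower. No share of all genes was taken at an unadjusted p, so the 19 are no result about the list. At an adjusted p under 0.05 and any fold change, 4 were higher and 6 lower at 48 h, close to the 9.58% and 10.4% of all genes. At 240 h 1 was called, beside 5.21% higher and 4.75% lower over all genes, and 14 were higher and 7 lower at any fold change, beside 20.1% and 18.4%. The list medians were 0.03 and 0.06 on the log2 scale, beside 0.01 over all genes at both times. At 72 h, 8 were higher and 27 lower at an adjusted p under 0.05, beside 29.8% and 26.8% of all genes, with a median of -0.18 beside 0.01 over all genes. Neither this difference from all genes nor a link to the levels of Myc or Mycn was tested. At 72 h 3 were called higher and 5 lower, beside 8.11% and 5.61% of all genes. The genes called lower took a larger share, and those called higher a smaller one, than over all genes, which was not tested. Over the alternatives, the number at an adjusted p under 0.05 ranged from 2 to 11 higher and 2 to 9 lower at 48 h, from 6 to 10 and 23 to 32 at 72 h, and from 8 to 21 and 4 to 8 at 240 h.

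The 8 called targets at 72 h are known from the cell cycle, iron uptake, metabolism and telomere maintenance. Ccnd2, a D-type cyclin, fell from 0.575 to 0.121 FPKM (log2 fold change -1.60, SE 0.11, adjusted p = 8.75e-05). Tfrc, the transferrin receptor, fell from 22.1 to 10.1 FPKM (-1.12, SE 0.04, adjusted p = 1.06e-05). Ldha, lactate dehydrogenase A, fell from 92.4 to 45.9 FPKM (-1.01, SE 0.05, adjusted p = 3.86e-05). Nme1, a nucleoside diphosphate kinase, and Shmt2, the mitochondrial serine hydroxymethyltransferase, are named after their values were seen, with log2 fold changes of -0.79 and -0.61. Cad, the enzyme of the first steps of pyrimidine synthesis, rose from 21.5 to 39.2 FPKM (0.87, SE 0.03, adjusted p = 1.62e-05). Tert, the telomerase catalytic subunit, and Slc19a1, the reduced folate carrier, were also called higher, with log2 fold changes of 0.73 and 0.61. Of these 8 genes, Ccnd2 was also called at 240 h (-0.65, adjusted p = 0.00451), and not without 240 h kd replicate 2 (-0.58) or with a pseudocount of 1 FPKM (-0.24). Ccnd2, Nme1 and Tfrc were called lower between 48 h and 72 h of knockdown, by 1.03, 0.69 and 0.60 on the log2 scale, and Tfrc not in 4 of 16 alternatives (-0.58 to -0.54) and Ccnd2 not with a pseudocount of 1 FPKM (-0.27). With a pseudocount of 1 FPKM the fold changes of Ccnd2, Tert and Slc19a1 at 72 h were -0.49, 0.46 and 0.57 and no longer called. Slc19a1 was also not called with median centring (0.55), and Shmt2 was no longer called without 48 h ctrl replicate 3 (-0.58) or against the 240 h ctrl libraries (-0.51).

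**Figure D4:**
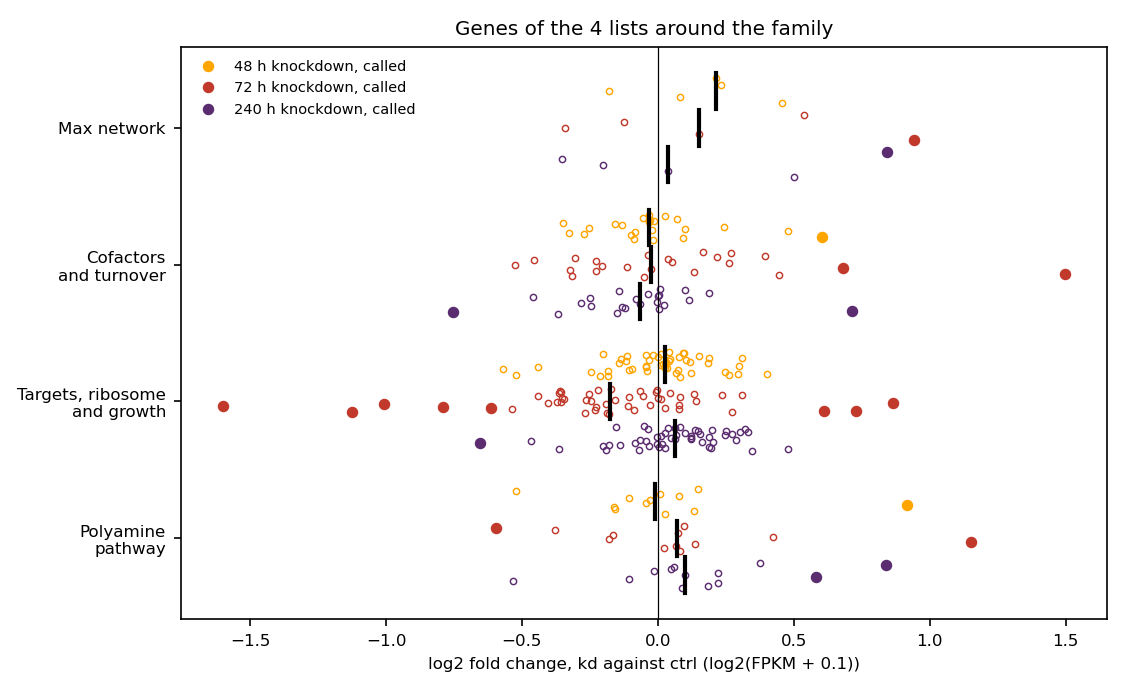
Log2 fold change on the log2(FPKM + 0.1) scale (x axis) of the genes of 4 lists (y axis) for kd against ctrl at 48 h (orange), 72 h (red) and 240 h (purple), 3 libraries per group, with filled points for called genes, open points for the others and a black bar for the median of the list. The median of the 50 targets is at -0.18 at 72 h and at 0.03 and 0.06 at 48 h and 240 h.

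Around Odc1, 2 enzymes of the polyamine pathway were called in the knockdown, Sat1 and Sms. Of 14 listed genes, 12 had enough reads to be tested at 48 h and 72 h and 13 at 240 h, and 1, 2 and 4 of them were higher and 1, 4 and 1 lower at an adjusted p under 0.05. Over all genes 9.58%, 29.8% and 20.1% were higher and 10.4%, 26.8% and 18.4% lower, so these counts are no result about the list. Sat1, which acetylates spermidine and spermine for export and breakdown, was at 29.9, 29.3 and 28.1 FPKM at 48 h ctrl, at 56.9, 54.5 and 53.6 at 48 h kd and at 61.5, 67.7 and 65.0 at 72 h kd. All kd libraries were above all ctrl libraries. Sat1 rose by 0.92 on the log2 scale (adjusted p = 0.000379) at 48 h, 1.15 (adjusted p = 1.7e-05) at 72 h and 0.58 (adjusted p = 0.000105) at 240 h, the last at the threshold and not called in 7 of 16 alternatives, with values of at least 0.56.

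Sms, spermine synthase, moved in opposite directions early and late. It was at 2.21, 2.23 and 2.23 FPKM at 48 h ctrl, at 1.51, 1.54 and 1.52 at 48 h kd and at 1.38, 1.46 and 1.48 at 72 h kd. At 240 h it was at 1.91, 1.96 and 1.98 FPKM in the ctrl and 3.48, 3.73 and 3.50 FPKM in the kd libraries. Every early kd library was below its control group and every late one above it. Its log2 fold changes were -0.52 (adjusted p = 0.00134, short of the fold threshold) at 48 h, -0.60 (adjusted p = 0.000114) at 72 h and 0.84 (adjusted p = 5.69e-05) at 240 h, and the effects at 240 h and 48 h differed by 1.36 (SE 0.05, adjusted p = 3.48e-07). The call at 72 h did not hold with a pseudocount of 1 FPKM (-0.40), without 72 h kd replicate 1 (-0.57) or against the 240 h ctrl libraries (-0.41). No other gene of the pathway was called by limma at these times.

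The genes most alike to the paralogues over the 15 libraries were ranked by Pearson's r of log2(FPKM + 0.1) among 7308 genes of at least 1 FPKM on average. Myc was most like Id1 (r = 0.946), Atf1 (0.945) and Rarg (0.942). Mycn was most like Pnp2 (0.958), Spp1 (0.935) and Oxnad1 (0.930), and Mycl was most like Bid (0.979), Mapk3 (0.977) and Apobec3 (0.975). The 15 points share 5 groups and the normalisation of their libraries, and these values are a description of a shared course over the groups.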

How the data were processed

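RNA of the 15 libraries was sequenced with single-end reads. Per the labels and the study's methods, the authors aligned the reads to mm10 with STAR 2.7.0c, counted those that overlap each gene and deposited FPKM values, reads per kilobase of the gene's span scaled to the library total, in 1 table per library. The annotation and the use of strand are not given in the sources used here. All values were whole multiples of 1 read (tolerance 0.001), from which reads were recovered, and whole spans including introns had been used as lengths.

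FPKM values were tested with limma 3.58.1 (R 4.3.3) on log2(FPKM + 0.1) with an intensity trend, separately in the libraries of each comparison, for genes averaging 10 or more reads, and with Benjamini-Hochberg adjustment. A call needed an adjusted p under 0.05 and a log2 fold change beyond 0.58 in either direction. The difference of the 240 h and 48 h effects was the interaction term of 1 fit. The fits were tested on simulated data. Members were named throughout, and of the other lists the 3 called genes with the largest change in each direction per comparison. The members and lists were chosen with earlier results of these data known. Alternatives were other pseudocounts, minimum levels, TPM, median centring, 1 fit of all libraries, no trend, a replicate block, voom on recovered reads, each library left out and, at 72 h, the 240 h ctrl libraries as the control. The alternative without the reads of Gm10197 was chosen after seeing the data. Exonic lengths came from GENCODE M21, to which 96.5% of 55228 genes matched, and promoters from RefSeq. The highest chi-square per degree of freedom between replicates, 10.2, was with 48 h kd replicate 2, the lowest was 1.27, and no replicates differed by less than sampling noise.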

Additional observations from a re-analysis of the deposited data

Results flagged for a closer look

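The knockdown effect at 240 h differed from that at 48 h, by the interaction term in limma with adjustment over all genes, for 1 member and for 3 genes among the Myc targets, the Max network, the cofactors and the polyamine pathway, where 3.53% of all genes were called higher and 3.32% lower. For Mycl the term was -0.65 on the log2 scale (adjusted p = 0.00948), with the 240 h kd libraries at 1.19 to 1.39 FPKM and the 48 h kd libraries at 2.11 to 2.67 FPKM. For Mga it was -0.59 (adjusted p = 0.0062), and for Pim3, the kinase, -0.84 (adjusted p = 5.89e-05). For Sms, spermine synthase, it was 1.36 (adjusted p = 3.48e-07), with every 48 h kd library below and every 240 h kd library above its controls. Of the cell type markers, 5 were called in the same test: Dppa3 (0.66, adjusted p = 0.00291), Krt7 (1.08, adjusted p = 0.000284), Pax6 (1.23, adjusted p = 0.000158), Col1a1 (0.99, adjusted p = 0.00165) and Esrrb (-0.62, adjusted p = 3.99e-05).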

How the results depend on the processing

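Of the values of single genes under all alternatives, 1439 kept their direction and stayed called or not called, 41 lost and 3 gained the fold threshold, with an adjusted p under 0.05 in all of these, and 22 changed sign. Among the 1439, the adjusted p alone rose past 0.05 in 52 and fell below it in 18, as for Myc at 72 h, with 0.0799 in the report, 0.00541 against 240 h ctrl and 0.00643 without 72 h kd replicate 3. The rises of Myc at 48 h (1.02 to 1.10) and 240 h (0.90 to 1.00) and the fall of Mycl at 240 h (-1.23 to -0.81) were called under every alternative. Members called at 48 h, 1 in the report, were 2 with TPM and 1 to 2 with each library left out (2 without 48 h kd replicate 3 or 48 h ctrl replicate 1). With a pseudocount of 1 FPKM, 0 were called at 72 h and 0 in the interaction, and 0 to 1 in the interaction with each library left out. Without the fold threshold, members past the test were 2 at 48 h, 6 at 72 h, 5 at 240 h and 7 between 72 h and 48 h of knockdown.

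Counts of all genes called moved more. At 48 h they were 720, and 188 with a pseudocount of 1, 1271 with 0.01, 456 with a minimum of 0.5 FPKM, 1233 with TPM, 1472 with voom and 3225 at any fold change. At 72 h 2215 became 684 with a pseudocount of 1, 3640 with voom and 9148 at any fold change. At 240 h 1656 became 520 and 2594 with pseudocounts of 1 and 0.01, 1016 with the minimum, 2551 with TPM, 2995 with voom and 6403 at any fold change. Between untreated groups 67 became 15 and 101 with the pseudocounts, 278 with TPM, 108 in 1 fit of all libraries, 212 with voom, 444 at any fold change and 0 with each library left out, whichever it was. Between 72 h and 48 h of knockdown 1155 became 306 and 1847 with the pseudocounts, 1941 with TPM, 2095 with voom and 5894 at any fold change. In the interaction 1123 became 343 with a pseudocount of 1, 664 with the minimum, 1706 with voom and 3012 at any fold change.

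The values that changed sign did not pass the test where they did so, and the cause was not tested. Mxd1 was at -0.013 with TPM and -0.0024 with median centring at 48 h, -0.037 with centring and -0.30 against 240 h ctrl at 72 h, and -0.036 with centring between 72 h and 48 h. With each library left out it ranged from -0.075 to 0.12, from -0.090 to 0.16 and from -0.11 to 0.14 in these comparisons. Odc1 ranged from -0.099 to 0.039 at 48 h and Mnt from -0.0088 to 0.083 at 240 h. Between untreated groups, Mxd3 was 0.063 with TPM and ranged from -0.081 to 2.85e-05, and Odc1 was 0.079 with TPM and ranged from -0.076 to 0.0099. In the interaction, Max was 0.0034 with TPM, Mycn ranged from -0.015 to 0.038 and Mxi1 from -0.081 to 0.0030.

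Replicate numbers did not pair the libraries: same-numbered libraries of the 48 h groups correlated at -0.26, -0.12 and 0.14, and in no comparison were all 3 above 0.1. With a replicate block, 0 genes were called between untreated groups, and the calls of the 10 members were the same in every comparison, while 4 values lost an adjusted p under 0.05: Mycn and Odc1 at 240 h (0.0462 to 0.090 and 0.0415 to 0.0669) and Max and Mxi1 between 72 h and 48 h of knockdown (0.0477 to 0.109 and 0.0381 to 0.0691), where 5 of 7 members still passed. The depth limits Mxd1, with 34 to 73 reads per library, and a minimum of 0.5 FPKM removed it.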
